A study of Mus musculus with 12 samples.

Results

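The collagen chains are the protein coding genes of the count table whose mouse symbol is Col, a type number, the letter a, and a chain number, and 44 of the 55536 genes in the table met this rule. They make up 27 collagen types. The rule used the symbols only, not the counts. RNA was sequenced from mouse C2C12 myoblasts that express green fluorescent protein (C2C12GFP), a commercial line of muscle precursor cells, after the cells had been placed in differentiation medium. The plates were uncoated (control) or coated with Collagen I, fibronectin, or Geltrex™, a basement membrane matrix composed mainly of laminin, collagen IV, and entactin, and each of the 4 groups had 3 samples. All groups share the cell line and the green fluorescent protein, so the results describe 1 line. The sources used here do not name the day on which the RNA was taken, and they do not state that the 3 samples of a group came from separate cultures, so p-values measure the spread between these samples, which may be technical.

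Collagens are the fibrous and network-forming proteins of the extracellular matrix. Each chain carries stretches of a Gly-X-Y repeat, chains wind around each other into a triple helix, and the type of chain decides whether the product is a striated fibril, a basement membrane sheet, a beaded filament, or a linker on the surface of other fibrils. In skeletal muscle, types I and III form the bulk of the connective tissue around fibers, type IV lies in the basement membrane that touches the myofiber, and type VI links that membrane to the surrounding matrix.

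The repeat is visible in the coding sequence. In the longest coding transcript of each chain (GENCODE M21, GRCm38), *Col1a1* held an unbroken run of 338 Gly-X-Y repeats, *Col1a2* 339, and *Col3a1* 344. In the network and multiplexin chains the repeat is broken often, with a longest run of 40 repeats in *Col4a1* and 30 in *Col18a1*. One coding exon from each of these 5 chains is given below, because they include the chains that moved in opposite directions (*Col1a1* and *Col1a2*), the most counted chain (*Col3a1*), and examples of the chains with their highest mean on fibronectin (*Col4a1* and *Col18a1*). Capitals mark the glycine codons that head a repeat in a run of 3 or more repeats. The exons are 5′ to 3′ on the coding strand, from chr11:94944914-94944967 (*Col1a1* exon 29, plus strand), chr6:4524876-4524929 (*Col1a2* exon 29, plus strand), chr1:45335728-45335781 (*Col3a1* exon 28, plus strand), chr8:11220982-11221095 (*Col4a1* exon 31, minus strand), and chr10:77078276-77078353 (*Col18a1* exon 10, minus strand).
Col1a1: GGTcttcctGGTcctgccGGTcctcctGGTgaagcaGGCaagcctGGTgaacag
Col1a2: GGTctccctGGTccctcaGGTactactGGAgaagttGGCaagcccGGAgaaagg
Col3a1: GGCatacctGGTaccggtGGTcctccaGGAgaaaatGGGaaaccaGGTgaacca
Col4a1: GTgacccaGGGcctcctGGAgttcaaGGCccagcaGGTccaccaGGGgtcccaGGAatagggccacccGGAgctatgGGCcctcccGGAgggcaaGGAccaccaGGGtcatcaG
Col18a1: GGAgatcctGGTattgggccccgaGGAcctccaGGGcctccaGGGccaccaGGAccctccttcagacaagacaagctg

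The exons of the fibrillar chains were picked among those of 54 bases inside the longest run, near its middle. Each holds 6 complete repeats, starting on a glycine codon. Exons of this length numbered 21 of 51 coding exons in *Col1a1*, 24 of 52 in *Col1a2*, and 24 of 51 in *Col3a1*, against 2 of 52 in *Col4a1* and 3 of 41 in *Col18a1*. The *Col4a1* and *Col18a1* exons were picked among short exons that hold the end of 1 run and the start of the next. A break in each was thus fixed by the choice. The *Col4a1* exon starts and ends inside a glycine codon and contains 1 break in the repeat. The *Col18a1* exon has a break as well and ends in sequence without the repeat.

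Total counts per sample were between 22520404 and 27351766. Counts are given as CPM, the count scaled to a fixed library size after TMM normalization, and levels of different chains are compared only as FPKM, which also divides by the length of a gene's exons. Counts of 1 group scattered more than sampling noise in all pairs of samples, but the Geltrex™ samples lay close together, with a chi-square per degree of freedom over genes of 2.23 to 4.81 compared with 8.29 to 70.7 in the other 3 groups. The 3 Geltrex™ samples were therefore also summed into 1. The 14499 genes with enough counts were tested together by edgeR (quasi-likelihood, p-values adjusted by Benjamini and Hochberg's method), and a gene is called here at an adjusted p of at most 0.05.

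Muscle and cell cycle markers differed between the same groups. Their calls are to be read against the shares of all tested genes. On fibronectin 17.1% of these were higher and 14.7% lower than in the control, and on Geltrex™ 16.4% and 16.6%. The 10 myotube markers, among them *Myog* and *Des*, summed to 9387 to 10429 CPM in the control and 10069.9 to 10455 CPM on Collagen I, but to 2974 to 3516 CPM on fibronectin and 4431 to 4744 CPM on Geltrex™, and all 10 were lower on both of these coatings than in the control. The 7 cycling myoblast markers summed to 198 to 242 CPM in the control, 172 to 178 on Collagen I, 570.3 to 744 on fibronectin, and 589 to 646 on Geltrex™, and 5 of 7 were higher on each of the latter 2 than in the control. These were the cell cycle genes *Mki67*, *Top2a*, *Ccnb1*, *Cdk1*, and *Ccna2*. The others, *Pax7* and *Myf5*, were not called. In the same order of groups, *Myf5* had means of 34.2, 32.5, 36.1, and 33.0 CPM and *Pax7* of 0.558, 0.239, 0.487, and 0.217 CPM. The part of these differences in the collagen results was not tested. In bulk RNA, fewer cells of a type and less RNA per cell cannot be told apart.

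Markers of other collagen-producing cells were examined as well. Beside their calls against the control stand the shares of all tested genes. These were 17.1% higher and 14.7% lower on fibronectin, 16.4% and 16.6% on Geltrex™, and 0.200% and 0.917% on Collagen I. The 10 fibroblast markers, which include the decorin and lumican genes, summed to 2766 to 3273 CPM in the control, 2764 to 2973 on Collagen I, 2355 to 2673 on fibronectin, and 2069 to 2132 on Geltrex™, while the fibroblast genes *Thy1* and *Tcf21* had a count of 0 in every sample. Against the control, 1 was higher (*Postn*) and 3 were lower (*Dcn*, *Lum*, and *Ly6a*) on fibronectin, 0 and 4 on Geltrex™ (*Dcn*, *Lum*, *Pi16*, and *Pdgfrb*), and 0 and 1 on Collagen I (*Pdgfrb*). The largest part of the fibroblast sum was *Dcn*, with a mean of 2009.9 CPM in the control, 2028 on Collagen I, 1665 on fibronectin, and 1316 on Geltrex™. *Dcn* and *Lum* also stand in the list of crosslinking and fibril assembly given further on. Of 5 tendon markers, 3 were tested. The tendon factor *Scx* and *Fmod* were lower on all 3 coatings and *Egr1*, which many stimuli induce, was higher on Geltrex™. The tendon list summed to 102 to 288 CPM over all samples. This sum was mostly *Egr1* and *Scx*, with means over all samples of 138 and 43.0 CPM. The untested *Tnmd* and *Mkx* had at most 7 and 10 counts in a sample. Of 8 cartilage and bone markers 2 were tested, of which *Runx2* was higher on fibronectin than in the control, and *Matn1* and *Ibsp* had a count of 0 throughout, with a list sum of 153 to 201 CPM. That sum was mostly *Sox9* and *Runx2*, with means over all samples of 112 and 68.0 CPM. *Acan*, *Sp7*, *Bglap*, and *Alpl* had at most 1, 4, 2, and 2 counts in a sample. Among 6 smooth muscle and pericyte markers, 3 were tested, with *Cspg4* lower on Collagen I, *Acta2* lower on fibronectin, and *Tagln* higher on Geltrex™, and the list summed to 853 to 1264 CPM. Most of this sum was *Acta2*, with a mean over all samples of 996 CPM, against 19.7 for *Cspg4* and 0.737 for *Tagln*. The untested *Myh11*, *Cnn1*, and *Rgs5* had at most 6, 9, and 5 counts in a sample. The endothelial, macrophage, adipocyte, and keratinocyte lists summed to at most 3.53, 1.59, 0.518, and 2.85 CPM in any sample. Of these 4 lists, the genes called against the control were *Tek* and *Krt14*, both lower on Geltrex™. The macrophage genes *Adgre1* and *C1qa* and the keratinocyte genes *Krt5*, *Krt1*, and *Epcam* had a count of 0 in every sample. The part of these lists in the collagen results was not tested.

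Of the 44 chains, 42 were counted at all and 35 were counted in every sample. *Col6a6* and *Col9a1*, a chain of a type VI variant and of cartilage type IX, had a count of 0 in all 12 samples, which allows up to 3 counts per sample, or 0.110 to 0.133 CPM. Another 11 chains did not pass the filter and had at most 13 counts in any sample. These were *Col2a1*, *Col4a3*, *Col4a6*, *Col6a4*, *Col9a2*, *Col9a3*, *Col19a1*, *Col20a1*, *Col22a1*, *Col25a1*, and *Col26a1*, among them the main chain of cartilage fibrils, *Col2a1*, with at most 3 counts. The filter left 31 chains to be tested, of which 25 had at least 10 counts in every sample. The remaining 6 (*Col4a4*, *Col6a5*, *Col13a1*, *Col15a1*, *Col23a1*, and *Col24a1*) passed with the help of the samples in which they were high, so their counts of calls describe the tested chains and are no evidence that collagen genes as a family moved.

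Of the counted reads, 12 chains with at least 1000 counts in every sample held 97.99% of all collagen counts. *Col3a1* alone held 50.3%, followed by *Col1a2* (11.6%), *Col5a2* (9.97%), *Col5a1* (5.09%), *Col12a1* (4.94%), and *Col6a1* (4.44%). Collagen chains together took 0.801% ± 0.0230 (SD, n = 3) of all counts in the control, 0.760% ± 0.0597 on Collagen I, 0.849% ± 0.0755 on fibronectin, and 0.807% ± 0.0205 on Geltrex™. The ranges of the 4 groups overlapped, with 0.702% in Collagen I sample 3 as the lowest share and 0.906% in fibronectin sample 3 as the highest.

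**Figure D1:**
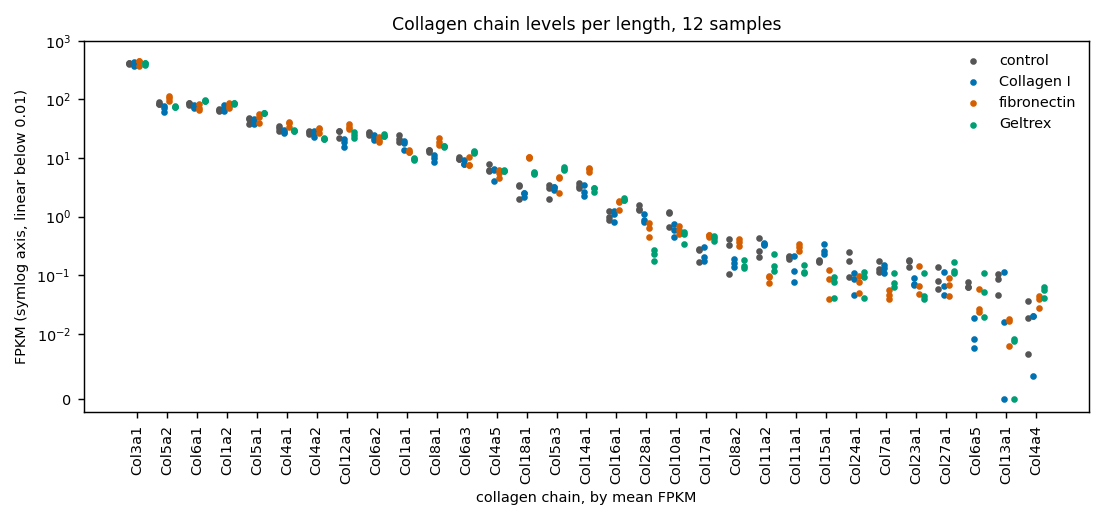
FPKM of the 31 tested collagen chains in each of the 12 samples, 1 point per sample, colored by coating, on a symlog axis (linear below 0.01). *Col3a1*, with a mean of 412 FPKM, lies above all other chains in every sample, and the chains on the right of *Col10a1* lie below 1 FPKM.

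Per length, the order of the chains was led by *Col3a1* with a mean level over the 12 samples of 412 FPKM. Then came *Col5a2* with 83.4, *Col6a1* with 81.9, *Col1a2* with 75.4, *Col5a1* with 48.4, *Col4a1* with 32.1, *Col4a2* with 26.2, *Col12a1* with 26.0, *Col6a2* with 23.4, and *Col1a1* with 15.4 FPKM. The levels of *Col5a2*, *Col6a1*, and *Col1a2* overlapped among samples. These lengths were the union of all annotated exons of a gene. With the longest transcript in its place, the level of *Col3a1* was 727 FPKM and that of *Col1a2* was 175 FPKM, so the order of the middle chains depends on the length used.

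Of the 31 tested chains, 28 (90.3%) were called in at least 1 of the 6 comparisons, against 63.8% of all genes tested. The 28 include *Col4a4*, *Col6a5*, *Col13a1*, *Col15a1*, *Col23a1*, and *Col24a1*, which passed the filter with the help of the samples in which they were high. The 3 that were called in none were *Col3a1*, *Col4a5*, and *Col27a1*. The comparisons share samples, and the counts that follow are therefore not independent of each other.

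No chain was called between Collagen I and the control. By edgeR, 0 chains were higher and 0 lower, against 0.200% of all tested genes higher and 0.917% lower. At an unadjusted p under 0.05, 11 chains differed, and DESeq2 called 3 chains lower (*Col6a5*, *Col8a1*, and *Col12a1*). The median log2 fold change of the tested chains was -0.27 and that of all tested genes was -0.0031. Without a filter on low counts, 5 chains were called lower (*Col1a1*, *Col6a5*, *Col8a1*, *Col12a1*, and *Col28a1*). Leaving out single samples gave 0 or 1, with 1 chain without control sample 1 or 3, Collagen I sample 1, or fibronectin sample 2 or 3. The shares of all genes at the unadjusted p and in these other settings are not given here. Those counts therefore describe the chains only.

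On fibronectin, 9 chains were higher than in the control and 9 were lower, which is 29.0% of the tested chains each way, against 17.1% of all tested genes higher and 14.7% lower. The higher chains were *Col1a2*, *Col4a1*, *Col5a2*, *Col8a1*, *Col12a1*, *Col14a1*, *Col16a1*, *Col17a1*, and *Col18a1*, and the lower ones were *Col1a1*, *Col6a2*, *Col7a1*, *Col10a1*, *Col11a2*, *Col13a1*, *Col15a1*, *Col24a1*, and *Col28a1*. Of the lower ones, *Col13a1*, *Col15a1*, and *Col24a1* passed the filter with the help of the samples in which they were high, so the lower share depends in part on the filter. The median log2 fold change was 0.056 over the chains and -0.016 over all genes. The total of 18 was 10 without control sample 1.

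On Geltrex™, 7 chains were higher than in the control and 8 were lower, which is 22.6% and 25.8% of the tested chains, against 16.4% and 16.6% of all tested genes. *Col5a1*, *Col5a3*, and *Col6a3* were among the higher ones, together with *Col1a2*, *Col16a1*, *Col17a1*, and *Col18a1*. *Col1a1*, *Col4a2*, *Col10a1*, *Col11a2*, *Col13a1*, *Col15a1*, *Col23a1*, and *Col28a1* were lower. Here too the lower share depends in part on the filter, which *Col13a1*, *Col15a1*, and *Col23a1* passed with the help of the samples in which they were high. The median log2 fold change was -0.16 over the chains and -0.012 over all genes. With the 3 Geltrex™ samples summed into 1, 6 chains were called, of which 5 were among the 15 (*Col1a1*, *Col5a3*, *Col16a1*, *Col18a1*, and *Col28a1*) and the other was *Col25a1*, which did not pass the filter otherwise.

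The coated groups were also compared with each other. Relative to fibronectin, Collagen I had 5 chains higher and 10 lower (22.1% and 22.9% of all genes), with a median log2 fold change of -0.17 over the chains and 0.022 over all genes. Relative to Geltrex™, it had 5 higher and 12 lower (18.2% and 19.0% of all genes), with medians of -0.10 and 0.026. Relative to Geltrex™, fibronectin had 10 higher and 3 lower (10.3% and 9.06% of all genes), with medians of 0.16 and -0.0049. With the Geltrex™ samples summed, the 17 chains called between Collagen I and Geltrex™ became 9 (*Col1a1*, *Col5a3*, *Col6a3*, *Col6a5*, *Col8a1*, *Col15a1*, *Col16a1*, *Col18a1*, and *Col28a1*), and the 13 called between fibronectin and Geltrex™ became 3 (*Col14a1*, *Col18a1*, and *Col28a1*). The calls against Geltrex™ described further on for other chains were thus lost in that setting.

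**Figure D2:**
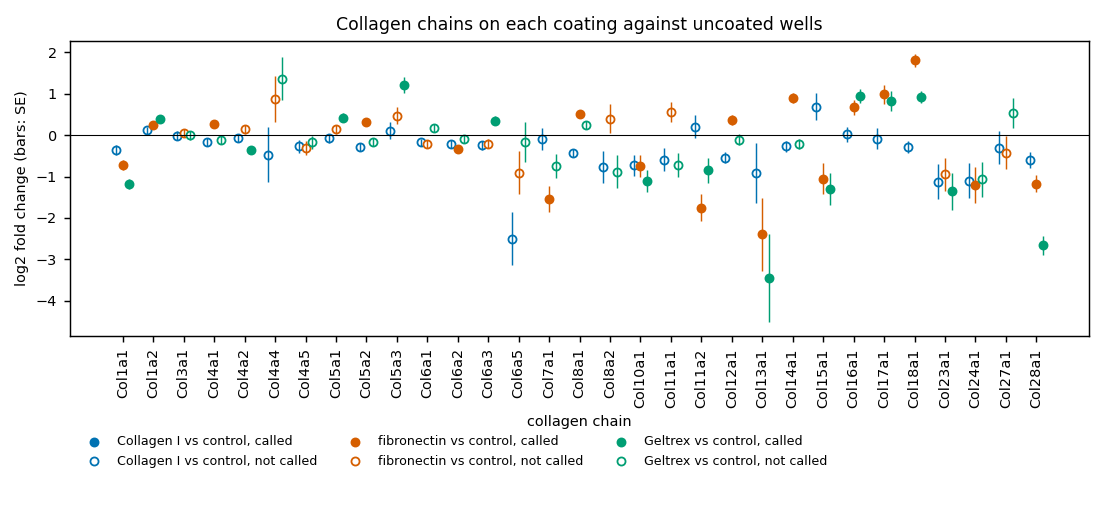
Log2 fold change of each of the 31 tested chains on Collagen I, fibronectin, and Geltrex™ relative to the control, with its standard error as a bar. Filled points were called at an adjusted p of at most 0.05. *Col18a1* on fibronectin (1.81) is the highest filled point and *Col1a1* and *Col1a2* lie on opposite sides of 0 on fibronectin and Geltrex™, whereas no point of Collagen I is filled.

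Among 25 chains with a mean of at least 1 CPM, fibronectin had the highest mean in 11, Geltrex™ in 7, the control in 6, and Collagen I in 1. Fibronectin stood apart from all other samples in 6 of its 11 chains (*Col5a2*, *Col8a1*, *Col11a1*, *Col12a1*, *Col14a1*, and *Col18a1*) and Geltrex™ in 5 of its 7 (*Col5a1*, *Col5a3*, *Col6a1*, *Col6a3*, and *Col16a1*). Collagen I had the lowest mean in 10 chains, and in *Col8a1* and *Col12a1* its 3 samples lay below all others. The same orders and separations were not counted over all tested genes, so these numbers describe the 25 chains only. The widest spread between group means was that of *Col28a1*, 6.30-fold, and the narrowest was that of *Col3a1*, 1.05-fold.

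The fibrillar chains were examined first. The genes *Col1a1* (chr11:94936224-94953042, GRCm38) and *Col1a2* (chr6:4504814-4541544) encode the alpha1 and alpha2 chains of type I collagen, the main fibril of tendon, bone, and muscle connective tissue, in which alpha1 chains usually outnumber alpha2 chains. *Col1a1* was counted at 165, 124, and 138 CPM in the control, at 128, 89.1, and 118 CPM on Collagen I, at 91.5, 83.1, and 84.7 CPM on fibronectin, and at 64.7, 62.8, and 60.5 CPM on Geltrex™. Geltrex™ was below all other samples, fibronectin was below the control, and Collagen I overlapped both of its neighbors in this order. *Col1a1* fell by 1.18 on the log2 scale on Geltrex™ (SE 0.12, edgeR adjusted p = 2.18e-06) and by 0.72 on fibronectin (SE 0.12, adjusted p = 0.000334) relative to the control, and its value on Collagen I was -0.35 (adjusted p = 0.175). The value on Collagen I passed with no filter on low counts (adjusted p = 0.0259). Collagen I exceeded fibronectin by 0.37 (adjusted p = 0.0209), which was lost without Collagen I sample 1 or 3 or fibronectin sample 2 (adjusted p = 0.0573 to 0.116). *Col1a1* was also lower on Geltrex™ than on fibronectin (fibronectin vs. Geltrex™ 0.46, adjusted p = 0.0139), a call that was lost without fibronectin sample 1 or Geltrex™ sample 3 (adjusted p = 0.0596 and 0.0602).

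*Col1a2* had the opposite order. Its values were 841, 815, and 800.1 CPM in the control, 878, 802, and 984 CPM on Collagen I, 971, 887, and 1070.3 CPM on fibronectin, and 1067, 1077, and 1048 CPM on Geltrex™. All samples on fibronectin and Geltrex™ were above the control, and fibronectin overlapped Collagen I and Geltrex™. Relative to the control, *Col1a2* was higher on Geltrex™ by 0.38 on the log2 scale (SE 0.089, adjusted p = 0.00399) and on fibronectin by 0.25 (SE 0.089, adjusted p = 0.0404). The fibronectin call was lost without any 1 of control samples 1, 2, and 3, fibronectin samples 1 and 3, and Geltrex™ samples 1, 2, and 3 (adjusted p = 0.0546 to 0.131), and the Geltrex™ call was lost with the Geltrex™ samples summed (adjusted p = 0.0921).

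The levels of these chains were set side by side per length. The ratio of the FPKM of *Col1a2* to that of *Col1a1* was 2.70, 3.46, and 3.05 in the control, 3.62, 4.75, and 4.40 on Collagen I, 5.60, 5.64, and 6.67 on fibronectin, and 8.71, 9.05, and 9.15 on Geltrex™. No sample of 1 group overlapped another group in this ratio, which had a mean of 3.07 ± 0.384 (SD, n = 3) in the control and 8.97 ± 0.233 on Geltrex™. The ratio was not tested. With the longest transcript as the length, the group means were 6.45, 8.94, 12.5, and 18.8 in the same order. A change of length multiplies the ratio of every sample by the same factor. It alters the height of the ratio and cannot alter the order of the samples, so the unchanged order is no check.

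**Figure D3:**
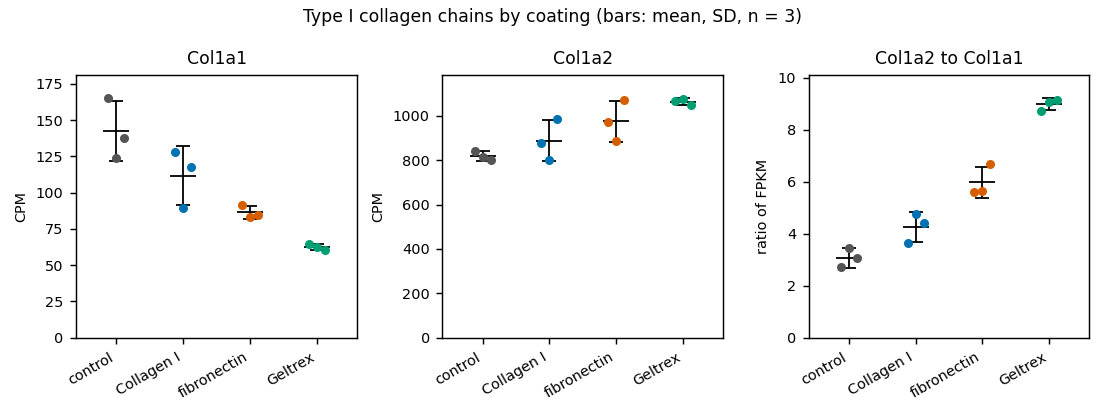
CPM of *Col1a1* and *Col1a2* and the ratio of their FPKM in the 12 samples, with the mean and SD of each group of 3. *Col1a1* declines from a mean of 142 CPM in the control to 62.7 on Geltrex™, *Col1a2* goes from 819 to 1064, and the ratio goes from 3.07 to 8.97.

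*Col3a1* (chr1:45311538-45349706), the chain of type III collagen, which co-assembles with type I in compliant tissues, was the most counted collagen gene. It had 3929.5, 4091, and 4017 CPM in the control, 4282, 4051, and 3637 CPM on Collagen I, 4414, 3629.8, and 4467 CPM on fibronectin, and 4153, 4025, and 3821 CPM on Geltrex™. The 4 groups overlapped, and the log2 fold changes relative to the control were -0.0081, 0.056, and -0.0047 (SE 0.10 each, adjusted p = 0.980, 0.694, and 0.977). The ratio of the FPKM of *Col3a1* to that of *Col1a1* therefore moved with *Col1a1*, with means of 19.1, 24.4, 32.2, and 42.7 in the order control, Collagen I, fibronectin, and Geltrex™.

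Type V collagen is a minor partner inside type I fibrils and limits their width. The genes of its 3 chains had different group orders. *Col5a1* was at 392, 402, and 327 CPM in the control, 389, 349, and 328 CPM on Collagen I, 431, 336, and 472 CPM on fibronectin, and 506, 501, and 494 CPM on Geltrex™. The Geltrex™ samples were above all others. *Col5a1* was higher on Geltrex™ than in the control (log2 fold change 0.42, SE 0.11, adjusted p = 0.00986), a call lost without control sample 3 (adjusted p = 0.053) and with the Geltrex™ samples summed. *Col5a1* was also higher on Geltrex™ than on Collagen I (Collagen I vs. Geltrex™ -0.49, adjusted p = 0.00328).

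*Col5a2*, which lies 24614 bases from *Col3a1* on chromosome 1 with the opposite orientation, had 787, 850.0, and 786 CPM in the control, 736, 676, and 584 CPM on Collagen I, 1083, 1028, and 902 CPM on fibronectin, and 722, 730.0, and 713 CPM on Geltrex™. The fibronectin samples were above all others, and the control was above Collagen I and Geltrex™ without overlap. *Col5a2* was higher on fibronectin than in the control by 0.32 (SE 0.093, adjusted p = 0.0171), than on Collagen I by 0.59 (adjusted p = 0.000130), and than on Geltrex™ by 0.48 (adjusted p = 0.00183). The first of these calls was lost without control sample 1 or 3 or fibronectin sample 1 (adjusted p = 0.0503 to 0.0826).

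*Col5a3* was counted at 23.9, 21.1, and 13.4 CPM in the control, 22.1, 19.4, and 21.7 CPM on Collagen I, 31.5, 17.3, and 32.0 CPM on fibronectin, and 48.2, 44.9, and 41.9 CPM on Geltrex™. Geltrex™ was above all other samples, and fibronectin sample 2 was within the range of the control. The rise on Geltrex™ was 2.31-fold relative to the control (log2 fold change 1.21, SE 0.20, adjusted p = 0.000273), and fibronectin was lower than Geltrex™ (log2 fold change -0.74, adjusted p = 0.0168), a call lost without fibronectin sample 2 or Geltrex™ sample 1 (adjusted p = 0.0594 and 0.0641) and with the Geltrex™ samples summed (adjusted p = 0.200). The value on fibronectin relative to the control was 0.47 (adjusted p = 0.0934) and was called without fibronectin sample 2 (adjusted p = 0.00637) or without control sample 1 (adjusted p = 0.0494). It was also called with no filter on low counts (adjusted p = 0.000321).

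Type XI chains, the counterpart of type V in cartilage, were much lower. *Col11a1* was at 2.74, 2.64, and 2.46 CPM in the control, 2.73, 1.52, and 0.992 CPM on Collagen I, 4.38, 3.89, and 3.30 CPM on fibronectin, and 1.92, 1.40, and 1.44 CPM on Geltrex™. Fibronectin was above all other samples, and it was higher than Collagen I (Collagen I vs. fibronectin -1.15, SE 0.27, adjusted p = 0.00289) and Geltrex™ (fibronectin vs. Geltrex™ 1.28, SE 0.27, adjusted p = 0.00365). Its value on fibronectin relative to the control was 0.56 (adjusted p = 0.107), which passed without Collagen I sample 1 (adjusted p = 0.0434) and with no filter on low counts (adjusted p = 0.0497). That on Geltrex™ was -0.72 (adjusted p = 0.0611), which passed without Collagen I sample 1 or 3 (adjusted p = 0.0224 and 0.0232), with DESeq2 (adjusted p = 0.0463), with no filter (adjusted p = 0.0206), and when only the groups compared were fitted (adjusted p = 0.0166).

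*Col11a2* went the other way on fibronectin. Its values were 2.94, 1.76, and 1.40 CPM in the control, 2.47, 2.30, and 2.29 CPM on Collagen I, 0.631, 0.670, and 0.505 CPM on fibronectin, and 1.58, 0.989, and 0.812 CPM on Geltrex™. Fibronectin lay below all other samples, and Geltrex™ overlapped the control. *Col11a2* fell by 1.75 on the log2 scale on fibronectin relative to the control (SE 0.32, adjusted p = 0.000791). The decline by 0.85 on Geltrex™ (adjusted p = 0.0404) was lost without control sample 1, Collagen I sample 1 or 2, fibronectin sample 1, or Geltrex™ sample 2 or 3 (adjusted p = 0.0518 to 0.247). It was also lost when only the groups compared were fitted (adjusted p = 0.0559).

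The remaining fibrillar chains were low. *Col27a1*, with a mean of 1.20 CPM, was called in no comparison, and *Col24a1* was at 7 to 52 counts per sample. *Col24a1* was called lower on fibronectin (adjusted p = 0.0427), and this was lost without control sample 1 or 2, Collagen I sample 2, any fibronectin sample, or Geltrex™ sample 1 or 2 (adjusted p = 0.0502 to 0.199). *Col27a1* was called lower on Collagen I than on Geltrex™ without Collagen I sample 1 (adjusted p = 0.031) or with no filter (adjusted p = 0.0351), and lower on fibronectin than on Geltrex™ with no filter (adjusted p = 0.0213) or when only the groups compared were fitted (adjusted p = 0.0363). *Col24a1* and *Col27a1* are named after their values were seen.

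Type IV chains assemble into the sheet of the basement membrane. *Col4a1* and *Col4a2*, the chains of the ubiquitous form, lie head to head on chromosome 8 (chr8:11198423-11312826, minus strand, and chr8:11312805-11449287, plus strand), and their annotated transcripts overlap by 22 bases. Whether counting used the strand is not stated, so reads in these 22 bases, 0.295% of the exon length of *Col4a1*, cannot be told apart. *Col4a1* had 240.4, 262, and 212 CPM in the control, 225, 210.2, and 203 CPM on Collagen I, 310.1, 249, and 301 CPM on fibronectin, and 217, 222, and 219 CPM on Geltrex™. Fibronectin was above Collagen I and Geltrex™ and overlapped the control.

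*Col4a1* was higher on fibronectin than on Collagen I (Collagen I vs. fibronectin -0.43, SE 0.094, adjusted p = 0.00189) and than on Geltrex™ (fibronectin vs. Geltrex™ 0.38, SE 0.094, adjusted p = 0.00958, and 0.0591 without fibronectin sample 1). It was called higher on fibronectin than in the control with a log2 fold change of 0.27 (adjusted p = 0.0423), but not without control sample 1 or 3, fibronectin sample 1 or 3, or Geltrex™ sample 1, 2, or 3 (adjusted p = 0.0566 to 0.165). This call was also lost with at least 10 counts in every sample (adjusted p = 0.0585) and when only the groups compared were fitted (adjusted p = 0.128). Geltrex™ contains collagen IV protein, and relative to the control its *Col4a1* value was -0.12 (adjusted p = 0.371).

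*Col4a2* had 187, 189, and 167 CPM in the control, 176, 152, and 189 CPM on Collagen I, 216, 173, and 208 CPM on fibronectin, and 141, 141, and 143 CPM on Geltrex™. All Geltrex™ samples were below all other samples. *Col4a2* fell by 0.35 on Geltrex™ relative to the control (SE 0.10, adjusted p = 0.010) and was higher on fibronectin than on Geltrex™ (0.49, adjusted p = 0.00197). Both calls were lost with the Geltrex™ samples summed, where the first had an adjusted p of 0.189. The ratio of the FPKM of *Col4a1* to that of *Col4a2* was 1.12 to 1.23 in the control and 1.36 to 1.40 on Geltrex™, without overlap, and was 0.952 to 1.22 on Collagen I and 1.27 to 1.28 on fibronectin.

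The alpha5 chain *Col4a5*, found in the basement membranes of muscle, kidney, and other tissues, was at 40.5, 53.6, and 42.0 CPM in the control, 41.8, 43.7, and 27.6 CPM on Collagen I, 42.7, 30.6, and 36.7 CPM on fibronectin, and 39.6, 40.1, and 41.5 CPM on Geltrex™. The groups overlapped and no comparison was called, although fibronectin against the control passed without Collagen I sample 3 (adjusted p = 0.0447) and with no filter on low counts (adjusted p = 0.0324). Its neighbor *Col4a6*, which starts 1308 bases away on the opposite strand of the X chromosome, had at most 8 counts in a sample and was not tested. *Col4a3* and *Col4a4*, which are arranged with their starts 71 bases apart on chromosome 1, had at most 9 and 16 counts. *Col4a4* had 5, 2, and 9 counts in the control, 5, 1, and 5 on Collagen I, 8, 10, and 12 on fibronectin, and 10, 16, and 13 on Geltrex™, and was called lower on Collagen I than on Geltrex™ (adjusted p = 0.0188), which was lost without Collagen I sample 2 or Geltrex™ sample 2 or 3 (adjusted p = 0.0533 to 0.0818).

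Type VI collagen forms beaded microfilaments around muscle fibers, and mutations in its chains cause muscle disease. *Col6a1* was at 383, 348, and 379 CPM in the control, 357, 307, and 323 CPM on Collagen I, 306, 293, and 362 CPM on fibronectin, and 431, 411, and 407 CPM on Geltrex™. Geltrex™ was above all other samples, and the other 3 groups overlapped. *Col6a1* was lower on Collagen I than on Geltrex™ (log2 fold change -0.34, SE 0.089, adjusted p = 0.00782) and lower on fibronectin than on Geltrex™ (-0.38, SE 0.089, adjusted p = 0.00751), whereas Geltrex™ relative to the control was 0.17 (adjusted p = 0.165). Both calls were lost with the Geltrex™ samples summed (adjusted p = 0.122 and 0.183). Fibronectin relative to the control was called without fibronectin sample 3 (adjusted p = 0.0172).

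*Col6a3*, the longest of the common type VI chains, followed a similar order. It had 114, 126, and 116 CPM in the control, 112, 95.5, and 94.3 CPM on Collagen I, 92.2, 89.5, and 126 CPM on fibronectin, and 147, 156, and 151 CPM on Geltrex™. Geltrex™ was above all other samples, and Collagen I was below the control. *Col6a3* was higher on Geltrex™ than on Collagen I by 0.59 (adjusted p = 0.000772), than on fibronectin by 0.56 (adjusted p = 0.00225), and than in the control by 0.35 (adjusted p = 0.0239). The last call was lost without control sample 1 or 3 or Geltrex™ sample 2 or 3 (adjusted p = 0.0624 to 0.0738), and fibronectin was called lower than the control without fibronectin sample 3 (adjusted p = 0.00617).

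*Col6a2*, which lies 85161 bases from *Col6a1* on chromosome 10, was counted at 231, 203, and 218 CPM in the control, 209, 167, and 184 CPM on Collagen I, 169, 157, and 189 CPM on fibronectin, and 212, 199.6, and 198 CPM on Geltrex™. Fibronectin was below the control and below Geltrex™. *Col6a2* fell by 0.34 on fibronectin relative to the control (SE 0.093, adjusted p = 0.0111), a call lost without control sample 1 or fibronectin sample 2 (adjusted p = 0.0508 and 0.0568). Its value on fibronectin relative to Geltrex™ was -0.24 (adjusted p = 0.0822) and passed without fibronectin sample 3 (adjusted p = 0.0314).

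The gene *Col6a5*, one of the 3 long variant chains beside *Col6a4* and *Col6a6*, had 15, 20, and 14 counts in the control, 4, 2, and 2 on Collagen I, 6, 6, and 14 on fibronectin, and 24, 12, and 4 on Geltrex™. Collagen I lay at or below the lowest sample of every other group. Collagen I against Geltrex™ was called (adjusted p = 0.0112, and 0.0909 without Geltrex™ sample 1), and Collagen I against the control was not (adjusted p = 0.0671). Collagen I against fibronectin was called without Geltrex™ sample 3 or 1 (adjusted p = 0.0461 and 0.0495).

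**Figure D4:**
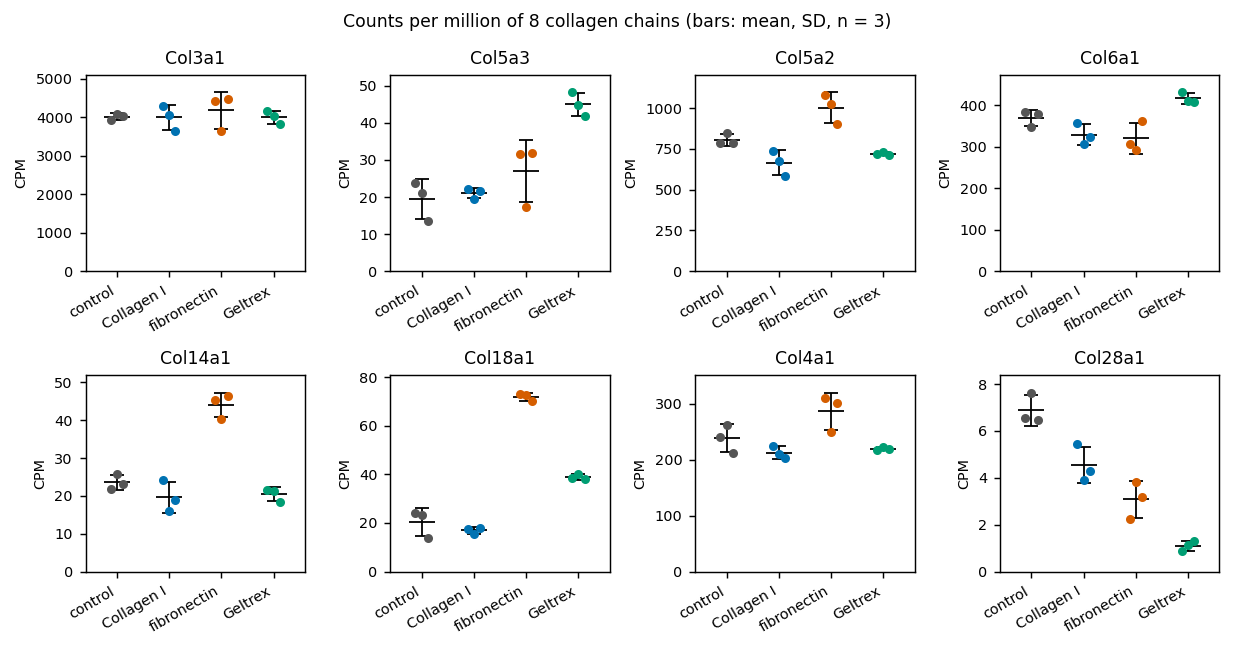
CPM of 8 collagen chains by sample and coating, with the mean and SD of each group of 3 and axes that start at 0. *Col3a1* is level, *Col5a3* and *Col6a1* are highest on Geltrex™, *Col5a2*, *Col14a1*, and *Col18a1* are highest on fibronectin, and *Col28a1* goes from a mean of 6.88 CPM in the control to 1.09 CPM on Geltrex™.

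*Col28a1*, a chain with von Willebrand factor A domains that is best known from peripheral nerve, had the widest range among the chains of at least 1 CPM. It was at 6.56, 7.63, and 6.45 CPM in the control, 5.42, 3.90, and 4.31 CPM on Collagen I, 2.23, 3.81, and 3.18 CPM on fibronectin, and 0.854, 1.11, and 1.31 CPM on Geltrex™. The 4 groups did not overlap. *Col28a1* fell by 2.66 on the log2 scale on Geltrex™ (SE 0.23, adjusted p = 3.14e-07) and by 1.17 on fibronectin (SE 0.20, adjusted p = 0.000339) relative to the control. Fibronectin and Geltrex™ differed as well (1.49, adjusted p = 0.000420). The difference of Collagen I from fibronectin (0.57, adjusted p = 0.0323) was lost without Collagen I sample 1 or fibronectin sample 1 or 3 (adjusted p = 0.0507 to 0.161). It was also lost when only the groups compared were fitted (adjusted p = 0.0646). Collagen I relative to the control was -0.60 (adjusted p = 0.138), which passed with no filter on low counts (adjusted p = 0.0432).

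The multiplexins carry an interrupted repeat and release endostatin-like fragments. *Col18a1* (chr10:77052178-77166548), a heparan sulfate proteoglycan of basement membranes, had 24.1, 23.4, and 13.9 CPM in the control, 17.6, 15.3, and 17.9 CPM on Collagen I, 73.2, 72.7, and 70.1 CPM on fibronectin, and 38.5, 40.2, and 38.0 CPM on Geltrex™. Fibronectin was above Geltrex™ and Geltrex™ was above the control and Collagen I, which overlapped. *Col18a1* rose 3.51-fold on fibronectin (log2 fold change 1.81, SE 0.15, adjusted p = 2.26e-07) and 1.89-fold on Geltrex™ (0.92, SE 0.15, adjusted p = 0.000143) relative to the control, and fibronectin exceeded Geltrex™ by 0.89 (adjusted p = 0.000324). Collagen I relative to the control was -0.28 (adjusted p = 0.405) and was called without control sample 3, the lowest control (adjusted p = 0.024).

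*Col15a1*, the other multiplexin, which is found in the basement membrane zone of muscle and vessels, had the opposite direction and far fewer counts. It is named after its values were seen. It had 28, 31, and 25 counts in the control, 51, 45, and 34 on Collagen I, 15, 6, and 20 on fibronectin, and 6, 12, and 13 on Geltrex™. Collagen I was above and fibronectin and Geltrex™ were below the control, without overlap. Collagen I exceeded fibronectin by 1.73 (SE 0.35, adjusted p = 0.00106) and Geltrex™ by 1.99 (SE 0.37, adjusted p = 0.000575) on the log2 scale. Its decline relative to the control on fibronectin (adjusted p = 0.0397) was lost without control sample 1, 2, or 3, fibronectin sample 1 or 2, or Geltrex™ sample 2 (adjusted p = 0.0524 to 0.157), and that on Geltrex™ (adjusted p = 0.0157) without Geltrex™ sample 1 (adjusted p = 0.0824). The fibronectin call was also lost when only the groups compared were fitted (adjusted p = 0.0583).

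The FACIT chains, which sit on the surface of fibrils and link them to other matrix proteins, were tested in 3 of 9 chains, and all 3 were higher on fibronectin than in the control, where 17.1% of all genes tested were higher. *Col14a1* was at 21.8, 25.8, and 23.2 CPM in the control, 24.1, 15.9, and 18.8 CPM on Collagen I, 45.3, 40.4, and 46.5 CPM on fibronectin, and 21.6, 21.3, and 18.3 CPM on Geltrex™. Fibronectin was above all other samples, and Geltrex™ was just below the control. *Col14a1* was 1.87-fold higher on fibronectin than in the control (log2 fold change 0.90, SE 0.13, adjusted p = 6.64e-05) and 2.16-fold higher than on Geltrex™ (1.11, adjusted p = 1.58e-05). Geltrex™ relative to the control was -0.21 (adjusted p = 0.232).

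*Col12a1* and *Col16a1* were also called on fibronectin, but neither reached a log2 fold change of 1, and they are named after their values were seen. *Col12a1*, a long chain of tendon, muscle, and ligament, had 331, 447, and 441 CPM in the control, 323, 281, and 235 CPM on Collagen I, 471, 582, and 521 CPM on fibronectin, and 332, 378, and 419 CPM on Geltrex™. Fibronectin was the highest and Collagen I the lowest group, neither overlapping another group. Collagen I was lower than fibronectin (-0.91, SE 0.13, adjusted p = 7.67e-05), and relative to the control it was -0.54 (adjusted p = 0.0615, and 0.0218 without control sample 1). The call on fibronectin relative to the control (0.37, adjusted p = 0.0463) was lost without control sample 1, Collagen I sample 2, fibronectin sample 2 or 3, or Geltrex™ sample 1, 2, or 3 (adjusted p = 0.0508 to 0.211). It was also lost with at least 10 counts in every sample (adjusted p = 0.0587) and when only the groups compared were fitted (adjusted p = 0.0650).

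*Col16a1* had 8.27, 6.53, and 5.90 CPM in the control, 8.36, 5.39, and 7.38 CPM on Collagen I, 11.8, 8.62, and 12.5 CPM on fibronectin, and 13.8, 13.0, and 12.8 CPM on Geltrex™. Both fibronectin and Geltrex™ were above the control and Collagen I without overlap. The log2 fold change relative to the control was 0.67 (SE 0.17, adjusted p = 0.00804) on fibronectin and 0.94 (SE 0.17, adjusted p = 0.000603) on Geltrex™. The other 6 FACIT chains, those of types IX, XIX, XX, and XXII, had at most 11 counts in any sample.

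The short network chains of types VIII and X resemble each other in length and domains. *Col8a1*, named after its values were seen and known from vessel walls and the cornea, had 101, 107, and 107 CPM in the control, 88.5, 67.4, and 76.9 CPM on Collagen I, 147, 169.9, and 131 CPM on fibronectin, and 126, 121, and 126 CPM on Geltrex™. The 4 groups did not overlap. *Col8a1* was higher on fibronectin than in the control (0.51, SE 0.10, adjusted p = 0.00140) and than on Collagen I (Collagen I vs. fibronectin -0.95, adjusted p = 3.77e-06). Collagen I relative to the control was -0.43 (adjusted p = 0.0550) and was called without Collagen I sample 1, fibronectin sample 2, or fibronectin sample 3 (adjusted p = 0.0296 to 0.0409), and Geltrex™ relative to the control was 0.25 (adjusted p = 0.0780) and was called without fibronectin sample 2 or 3 (adjusted p = 0.0488 and 0.0496).

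*Col8a2* was much lower and did not follow *Col8a1* on Geltrex™. It had 1.83, 1.47, and 0.467 CPM in the control, 0.867, 0.632, and 0.733 CPM on Collagen I, 1.89, 1.42, and 1.67 CPM on fibronectin, and 0.641, 0.824, and 0.586 CPM on Geltrex™. Fibronectin was above Collagen I and Geltrex™, and the control overlapped every other group. *Col8a2* was higher on fibronectin than on Geltrex™ (1.27, SE 0.38, adjusted p = 0.0276), a call lost without fibronectin sample 1 or any Geltrex™ sample (adjusted p = 0.0543 to 0.0977), and than on Collagen I (Collagen I vs. fibronectin -1.16, adjusted p = 0.0189), a call lost without Collagen I sample 2 or fibronectin sample 1 (adjusted p = 0.0595 and 0.0642). Without control sample 3, Geltrex™ was called lower than the control (adjusted p = 0.00492).

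*Col10a1*, the marker of hypertrophic cartilage, was at 3.70, 3.56, and 2.12 CPM in the control, 1.86, 2.38, and 1.38 CPM on Collagen I, 2.19, 1.88, and 1.55 CPM on fibronectin, and 1.71, 1.07, and 1.58 CPM on Geltrex™. Geltrex™ was below the control, and Collagen I and fibronectin overlapped both. *Col10a1* fell by 1.11 on Geltrex™ relative to the control (SE 0.27, adjusted p = 0.00514). With the Geltrex™ samples summed this call was lost (adjusted p = 0.0632). The call on fibronectin relative to the control (-0.74, adjusted p = 0.0413) was lost without control sample 1 or 2, Collagen I sample 1, any fibronectin sample, or Geltrex™ sample 1 or 3 (adjusted p = 0.0509 to 0.155).

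*Col7a1*, the chain of the anchoring fibrils below epithelia, had 1.79, 1.17, and 1.32 CPM in the control, 1.52, 1.11, and 1.38 CPM on Collagen I, 0.409, 0.586, and 0.466 CPM on fibronectin, and 1.11, 0.659, and 0.767 CPM on Geltrex™. Fibronectin was below all other samples. *Col7a1* fell by 1.55 on fibronectin relative to the control (SE 0.31, adjusted p = 0.00143), and Geltrex™ relative to the control was -0.75 (adjusted p = 0.0583), which passed without Geltrex™ sample 1 or control sample 2 (adjusted p = 0.041 and 0.0497).

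Transmembrane collagens keep their chain in the cell membrane. *Col17a1*, the hemidesmosome chain of epithelia, had 1.67, 1.61, and 1.02 CPM in the control, 1.82, 1.04, and 1.25 CPM on Collagen I, 2.97, 2.89, and 2.72 CPM on fibronectin, and 2.78, 2.31, and 2.62 CPM on Geltrex™. Fibronectin and Geltrex™ overlapped each other and lay above the control and Collagen I. *Col17a1* was higher than in the control on fibronectin (0.99, SE 0.23, adjusted p = 0.00462) and on Geltrex™ (0.83, SE 0.24, adjusted p = 0.0137, 0.0603 without control sample 3, and 0.103 with the Geltrex™ samples summed).

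*Col13a1*, which helps to hold the neuromuscular junction together, was near the limit of detection and is named after its values were seen. It had 10, 13, and 5 counts in the control, 12, 2, and 0 on Collagen I, 1, 2, and 2 on fibronectin, and 1, 1, and 0 on Geltrex™. Fibronectin and Geltrex™ were below the control, and no fold is given at so few counts. It was called lower on fibronectin (adjusted p = 0.0490) and Geltrex™ (adjusted p = 0.0195), and these calls were lost without control sample 1 or 2, any fibronectin sample, or any Geltrex™ sample in the first case (adjusted p = 0.0603 to 0.153) and control sample 2 or any Geltrex™ sample in the second (adjusted p = 0.0526 to 0.0756). The fibronectin call was also lost with DESeq2 (adjusted p = 0.0688). *Col23a1*, another transmembrane chain that is named after its values were seen, had 5 to 29 counts in a sample and was called lower on Geltrex™ than in the control (adjusted p = 0.0263), which was lost without control sample 1 or 2 or Geltrex™ sample 1 or 3 (adjusted p = 0.0616 to 0.117). The transmembrane chain *Col25a1* was not tested.

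Genes that act on collagen chains were examined in 6 lists. Of all genes tested, 17.1% were higher and 14.7% lower on fibronectin than in the control, 16.4% and 16.6% on Geltrex™, and 0.200% and 0.917% on Collagen I, and the counts in each list are to be read against these shares. Of 20 genes for folding and hydroxylation, 19 were tested. On fibronectin 1 was higher (*P3h2*) and 2 were lower (*Tmem38b* and *P3h4*) than in the control, on Geltrex™ 2 were higher (*P4ha2* and *P3h2*) and 3 lower (*Tmem38b*, *Plod2*, and *P3h4*), and on Collagen I 0 and 1 (*P4ha3*). *Serpinh1*, the collagen chaperone HSP47, had a mean of 397 ± 29.5 CPM (SD, n = 3) in the control, 416 ± 28.6 on Collagen I, 408 ± 12.6 on fibronectin, and 452 ± 15.7 on Geltrex™ and was called in no comparison, although Geltrex™ against the control passed without control sample 1 (adjusted p = 0.0443) and with DESeq2 (adjusted p = 0.0318). No call was made either for *P4ha1*, a catalytic subunit of prolyl 4-hydroxylase, and *Plod1*, a lysyl hydroxylase. *P4ha2* was higher on Geltrex™ than in the control (0.34, SE 0.091, adjusted p = 0.00926, and 0.121 with the Geltrex™ samples summed), and *Plod2* was lower (-0.26, SE 0.09, adjusted p = 0.0350). The *Plod2* call was lost without control sample 2 or 3, Collagen I sample 1, fibronectin sample 1, or any Geltrex™ sample (adjusted p = 0.0531 to 0.155). It was also lost with no filter on low counts (adjusted p = 0.0517). *Plod3*, another lysyl hydroxylase, had lower counts on fibronectin than on Collagen I (Collagen I vs. fibronectin 0.40, adjusted p = 0.00557). Its value on fibronectin relative to the control was -0.26 (adjusted p = 0.0676), which passed with at least 10 counts in every sample (adjusted p = 0.0464). It also passed without control sample 3, Collagen I sample 3, or fibronectin sample 3 (adjusted p = 0.0254 to 0.0451).

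*P4ha3*, another form of the prolyl 4-hydroxylase subunit, was, with *Fmod*, 1 of the 2 genes in the 6 lists that were called between Collagen I and the control in the main fit. It had 6.28, 5.65, and 6.20 CPM in the control, 4.20, 3.46, and 3.67 CPM on Collagen I, 6.57, 7.12, and 6.83 CPM on fibronectin, and 6.49, 6.14, and 7.89 CPM on Geltrex™. Collagen I was below all other samples, with a log2 fold change of -0.68 relative to the control (SE 0.14, adjusted p = 0.0273). This call was lost without control sample 1, 2, or 3, Collagen I sample 2 or 3, or Geltrex™ sample 1 (adjusted p = 0.0522 to 0.117). It was also lost when only the groups compared were fitted (adjusted p = 0.137). *Tmem38b*, a channel of the endoplasmic reticulum needed for collagen modification, was lower on fibronectin (-1.05, adjusted p = 1.58e-06) and Geltrex™ (-0.71, adjusted p = 5.69e-05), and *P3h2*, a prolyl 3-hydroxylase that acts on type IV collagen, was higher on both (0.68 and 0.82, adjusted p = 0.00181 and 0.000294).

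Of 9 genes for export of procollagen from the endoplasmic reticulum, all of which were tested, 1 was higher on fibronectin and 1 on Geltrex™ than in the control, and 0 were lower. On both coatings this was *Sec24d*, a coat protein of transport vesicles, by 0.39 (adjusted p = 0.00834) and 0.33 (adjusted p = 0.0199) on the log2 scale. The Geltrex™ call was lost without control sample 1 or 3 or Geltrex™ sample 1 or 3 (adjusted p = 0.0559 to 0.0810) and with the Geltrex™ samples summed (adjusted p = 0.202). On Collagen I, *Sec24d* was -0.41 relative to the control (adjusted p = 0.0658). It was called lower there with DESeq2 (adjusted p = 0.0168), with no filter on low counts (adjusted p = 0.00435), and without fibronectin sample 3 (adjusted p = 0.0498). Relative to fibronectin, 5 of the 9 were lower on Collagen I (22.9% of all genes tested), among them *Sec24d*, *Mia2* (-0.44, adjusted p = 0.00264), and *Sec23b* (-0.29, adjusted p = 0.00702).

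Of 9 genes that cut procollagen ends, 7 were tested. *Tll1*, a tolloid-like protease, was at 2.23, 2.02, and 1.87 CPM in the control, 0.780, 1.30, and 1.12 CPM on Collagen I, 3.05, 4.40, and 2.52 CPM on fibronectin, and 0.513, 0.618, and 0.676 CPM on Geltrex™. The 4 groups did not overlap, and *Tll1* fell by 1.75 on Geltrex™ relative to the control (adjusted p = 0.000233). Its value on fibronectin was 0.70 (adjusted p = 0.0335), a call lost without control sample 1, 2, or 3 or fibronectin sample 1 or 2 (adjusted p = 0.0538 to 0.197). That call was also lost when only the groups compared were fitted (adjusted p = 0.0573). With no filter on low counts, *Tll1* was called lower on Collagen I than in the control (-0.92, adjusted p = 0.0415). Of the list, 1 gene was higher (*Tll1*) and 0 were lower on fibronectin, 0 were higher and 3 lower on Geltrex™, and 0 were called on Collagen I, all against the control. *Pcolce2*, an enhancer of C-propeptide removal, fell by 0.69 on Geltrex™ (adjusted p = 1.09e-05), and the third was the proprotein convertase gene *Furin*, whose call (adjusted p = 0.0450) was lost without control sample 1 or 2, Collagen I sample 1 or 2, fibronectin sample 1 or 3, or any Geltrex™ sample (adjusted p = 0.0519 to 0.166). The *Furin* call was also lost with no filter on low counts (adjusted p = 0.0800). *Adamts14*, an N-propeptidase, was lower on fibronectin than on Geltrex™ (-0.62, adjusted p = 0.0126), a call lost without fibronectin sample 2 (adjusted p = 0.0642) and with the Geltrex™ samples summed (adjusted p = 0.178).

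Of 14 genes for crosslinking and fibril assembly, 13 were tested, and 5 were higher (*Loxl2*, *Pxdn*, *Thbs2*, *Lox*, and *Loxl4*) and 5 lower (*Fmod*, *Tgm2*, *Dcn*, *Lum*, and *Sparc*) on fibronectin than in the control. On Geltrex™ 3 were higher (*Loxl2*, *Thbs2*, and *Lox*) and 6 lower, the same 5 and *Bgn*, and on Collagen I 0 and 1 (*Fmod*). *Lox*, the lysyl oxidase that crosslinks fibrils, had 541, 609, and 633 CPM in the control, 546, 475, and 427 CPM on Collagen I, 968, 1166, and 912 CPM on fibronectin, and 796, 753, and 784 CPM on Geltrex™. Fibronectin was above Geltrex™, and Geltrex™ was above the control. *Lox* rose by 0.77 on the log2 scale on fibronectin (SE 0.11, adjusted p = 5.59e-05) and by 0.39 on Geltrex™ (SE 0.11, adjusted p = 0.0105, and 0.149 with the Geltrex™ samples summed). *Thbs2*, a matricellular protein of fibril organization, was also higher on both (0.36 and 0.80, adjusted p = 0.00787 and 6.51e-06). On Collagen I it was not called in the main fit. It was called lower there with DESeq2 (adjusted p = 0.00708), no filter (adjusted p = 0.00603), or at least 10 counts in every sample (adjusted p = 0.0381). The same held without control sample 1 or fibronectin sample 2 or 3 (adjusted p = 0.0336 to 0.0445).

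Small proteoglycans coat collagen fibrils. *Lum* (lumican) had 75.8, 92.1, and 104 CPM in the control, 96.3, 90.1, and 72.7 CPM on Collagen I, 51.0, 44.8, and 65.7 CPM on fibronectin, and 20.7, 19.4, and 17.4 CPM on Geltrex™. Geltrex™ was below fibronectin, which was below the control and Collagen I. *Lum* fell by 2.24 on Geltrex™ (SE 0.15, adjusted p = 2.98e-08) and by 0.75 on fibronectin (SE 0.14, adjusted p = 0.000965) relative to the control. *Fmod* (fibromodulin) was at 3.66, 2.68, and 2.93 CPM in the control, 1.56, 0.855, and 0.690 CPM on Collagen I, 1.82, 2.34, and 1.01 CPM on fibronectin, and 0.683, 0.659, and 0.676 CPM on Geltrex™. All coated samples were below the control, and *Fmod* fell by 2.19 on Geltrex™ (adjusted p = 0.000115). Its value was -1.58 on Collagen I (adjusted p = 0.0240), a call lost without control sample 1, 2, or 3 or Collagen I sample 2 or 3 (adjusted p = 0.0514 to 0.101) and when only the groups compared were fitted (adjusted p = 0.0715). On fibronectin it was -0.84 (adjusted p = 0.0390), a call lost without control sample 1 or 3, fibronectin sample 1 or 3, or any Geltrex™ sample (adjusted p = 0.0524 to 0.147).

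**Figure D5:**
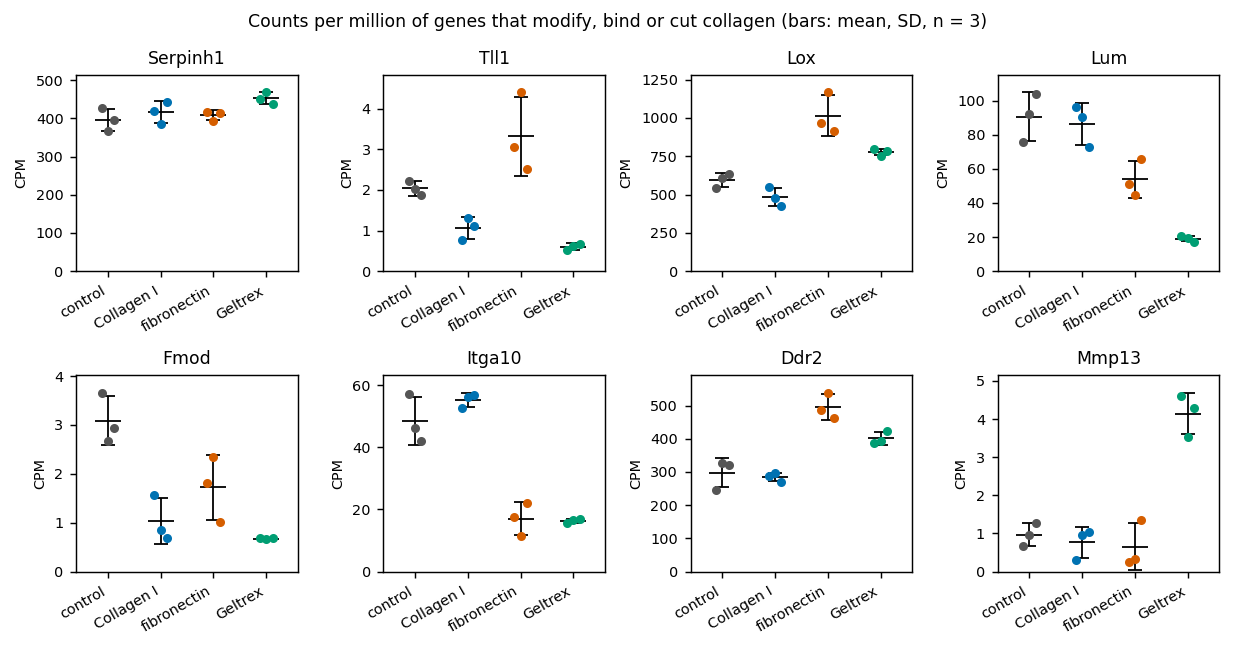
CPM of 8 genes that fold, process, crosslink, bind, or cut collagen, by sample and coating, with the mean and SD of each group of 3 and axes that start at 0. *Serpinh1* has group means of 397 to 452 CPM, *Lox* and *Ddr2* are highest on fibronectin, *Lum* and *Fmod* are lowest on Geltrex™, *Itga10* is low on fibronectin and Geltrex™, and *Mmp13* is highest on Geltrex™.

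Of 10 collagen receptor genes, 7 were tested. Relative to the control, 1 was higher and 2 were lower on fibronectin, 2 and 2 on Geltrex™, and 0 and 0 on Collagen I. *Itga10*, a collagen-binding integrin subunit, had 57.2, 46.3, and 42.1 CPM in the control, 52.5, 56.3, and 56.8 CPM on Collagen I, 17.6, 11.5, and 22.0 CPM on fibronectin, and 15.6, 16.7, and 16.8 CPM on Geltrex™. Compared with the control, it fell by 1.51 on fibronectin and by 1.57 on Geltrex™ (SE 0.17 each, adjusted p = 6.09e-06 and 3.13e-06), and fibronectin and Geltrex™ overlapped. *Ddr2*, a receptor tyrosine kinase for fibrillar collagen, was higher on fibronectin (0.73, adjusted p = 5.63e-05) and Geltrex™ (0.43, adjusted p = 0.00397, and 0.0920 with the Geltrex™ samples summed). *Ddr1*, its relative, was lower on fibronectin (-0.33, adjusted p = 0.0459), a call lost without control sample 1 or 2, Collagen I sample 1, fibronectin sample 1 or 2, or any Geltrex™ sample (adjusted p = 0.0592 to 0.210). That call was also lost when only the groups compared were fitted (adjusted p = 0.0844). *Itga11*, an integrin subunit that binds type I collagen, was lower on Geltrex™ (-0.83, adjusted p = 0.00802, and 0.0811 with the Geltrex™ samples summed), and *Mrc2*, an endocytic collagen receptor, was the second gene called higher there. *Itga1* was called in no comparison and *Itga2* did not pass the filter.

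Of 12 genes for collagen degradation, 9 were tested, with 1 higher (*Ctsl*) and 1 lower (*Ctsk*) on fibronectin than in the control, 2 higher (*Mmp9* and *Mmp13*) and 0 lower on Geltrex™, and 0 called on Collagen I. *Mmp13*, a collagenase, had 0.676, 0.954, and 1.27 CPM in the control, 0.303, 0.966, and 1.04 CPM on Collagen I, 0.260, 0.335, and 1.36 CPM on fibronectin, and 4.61, 3.54, and 4.28 CPM on Geltrex™. Geltrex™ was above all other samples, 4.28-fold higher than the control (log2 fold change 2.10, SE 0.43, adjusted p = 0.00126). *Mmp14*, a membrane-bound collagenase, was higher on Collagen I than on Geltrex™ (0.27, adjusted p = 0.0249), a call lost without Collagen I sample 1 or 3 or any Geltrex™ sample (adjusted p = 0.0562 to 0.0883). *Ctsl*, a lysosomal protease, was higher on fibronectin than in the control (0.25, adjusted p = 0.0298), a call lost without control sample 1 or 2 or fibronectin sample 1 or 3 (adjusted p = 0.0507 to 0.101). That call was also lost when only the groups compared were fitted (adjusted p = 0.0759). Without fibronectin sample 3, *Mmp13* was called lower on fibronectin than in the control (adjusted p = 0.0175).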

How the data were processed

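RNA from 12 samples of C2C12GFP cells was sequenced as paired reads. For read checks the authors named FastQC, for trimming Trimmomatic, for alignment HISAT2, and for counting featureCounts. The deposited table holds raw counts per gene in 1 column for each sample. The genome build, the annotation, and the use of strand are not given in the sources used here. All 55536 identifiers were found in GENCODE M21 (GRCm38), the source of names, positions, exon lengths, and coding exons.

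A filter in edgeR 4.0.16 (R 4.3.3, minimum count 10, minimum total 15) left 14499 genes. After TMM scaling, the 4 groups entered 1 quasi-likelihood fit (8 residual degrees of freedom) for 6 comparisons, with Benjamini-Hochberg adjustment over all genes tested. The SE was derived from the fold change and its F statistic. FPKM used the union of exons. CPM, FPKM, and folds were computed here from the deposited counts. Floors cover counting error only.

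Per-sample values are given for tested chains of types I, III, IV, V, and VI and for other chains that were called with a change of at least 2-fold and a mean of at least 1 CPM. In each partner list the 3 called genes with the largest change at that level are named, besides *P4ha1*, *P4ha2*, *Plod1*, *Plod2*, *Plod3*, *Serpinh1*, *Lox*, *Itga1*, *Itga2*, *Itga11*, *Ddr1*, and *Ddr2*. Partner and marker genes named beyond this rule complete a count and were chosen after their values were seen. The members and lists were chosen with earlier results of these data known. The procedure was tested on simulated data. The alternatives for partner genes were chosen after seeing the data. Alternatives were RLE scaling, DESeq2 1.42.0, no filter or at least 10 counts in every sample, fits of the compared groups alone, a replicate block, a fold minimum of 2, summed Geltrex™ samples, and leaving out each sample.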

Additional observations from a re-analysis of the deposited data

How the results depend on the processing

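RLE scaling changed no call of a tested chain, and under none of the alternatives did a called chain or named partner gene change direction. Against the control, Collagen I had 0 chains called, 3 with DESeq2, 5 when no gene was filtered, 1 when each sample had to hold at least 10 counts (*Col8a1*), and 0 to 1 when 1 sample was left out, with 1 chain without control sample 1 or 3, Collagen I sample 1, or fibronectin sample 2 or 3. The cause of these differences was not tested. With a fold change of at least 2, 7 chains were called for fibronectin and 7 for Geltrex™ against the control, 8 and 7 for Collagen I relative to fibronectin and Geltrex™, and 4 for fibronectin relative to Geltrex™. No share of all genes is set beside the counts in this section, so they describe the chains only. With the Geltrex™ samples summed, the lone sample is assumed to vary like the other groups, and 6, 9, and 3 chains were called where 15, 17, and 13 were called with 3 samples. Leaving out 1 sample gave 10 to 19 chains for fibronectin (10 without control sample 1) and 11 to 16 for Geltrex™ against the control, 13 to 17 and 12 to 17 for Collagen I relative to fibronectin and Geltrex™, and 10 to 16 for fibronectin relative to Geltrex™.

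In no comparison did the deviations of all 3 same-numbered pairs correlate above 0.1, so the replicate numbers were not taken to pair the samples in the main fit. For Collagen I and fibronectin, however, the same-numbered correlations were 0.0473, 0.169, and 0.225. All of these lay above the differently numbered ones, which were -0.209 to 0.0424, so a pairing of these groups is not excluded. With the replicate block, 0, 18, 17, 15, 18, and 14 chains were called in the 6 comparisons in the order of the report, compared with 0, 18, 15, 15, 17, and 13. Among the calls gained with the block were *Col11a1* for Geltrex™ against the control (adjusted p = 0.0284) and *Col27a1* for Collagen I and fibronectin relative to Geltrex™ (adjusted p = 0.0328 and 0.0342). In each sample the chains below 1 CPM rest on few counts, and their folds are imprecise at this depth.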
